A study of Mus musculus with 19 samples.

Results

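Arntl (also called Bmal1), Npas2, Clock, Nfil3 and Cry1 are circadian clock genes named for the morning side of the daily cycle, and they were followed in RNA-Seq libraries of the mouse suprarenal abdominal aorta. These 5 genes were chosen by name, each was found once among the 20408 genes of the expression table, and all 5 were expressed highly enough to be tested. The 19 male C57BL/6 mice were 8 weeks old by the labels, ate chow, lacked ApoE, carried SMA-CreERT2 and had all received tamoxifen. The methods give this age for the tamoxifen injections, and the pumps were implanted after a recovery period. The IKKβ+/+ mice, labelled WT, were SMA-CreERT2 ApoE-/-, and 5 of them received angiotensin II (Ang II) and 5 received saline. The IKKβ-/- mice, labelled KO, were SMA-CreERT2 Ikkβ Flox/Flox ApoE-/-, and 5 of them received Ang II and 4 received saline. Ang II, a vasoconstrictor peptide used to produce aortic aneurysm in mice without ApoE, was delivered by a subcutaneous osmotic pump for 24 h, at 1000 ng/min/kg in the methods for these libraries and at 500 to 1000 ng/min/kg in the sample labels. The Cre is driven by the promoter of smooth muscle α-actin, so the deletion is restricted to smooth muscle cells while the library holds the RNA of the whole vessel wall.

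The circadian clock is a transcriptional loop. ARNTL pairs with CLOCK, or with its close relative NPAS2, and the pair binds E-box sequences to switch on the Per and Cry genes, the Rev-erb genes Nr1d1 and Nr1d2, and the PAR-bZIP genes Dbp, Tef and Hlf. PER and CRY proteins then block the pair, and the REV-ERB proteins repress Arntl, Clock, Npas2, Nfil3 and Cry1 through ROR response elements, so that in most tissues these genes peak when Dbp and the Per genes are low. NFIL3 binds the same D-box sequences as DBP, TEF and HLF but represses from them. The blood vessel wall holds such a clock, and in mice it takes part in the daily rhythm of blood pressure and vascular tone.

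The regulatory letters that textbooks give to this loop were looked for in 300-base windows around the transcription starts of these genes, and the stretches that hold them are shown so that the values below can be read beside the DNA. The sequences are from RefSeq on GRCm38.p6, read along the strand of the gene, with the matched letters in capitals. The letters searched on both strands were CACGTG for the E-box, CACGTT for the E′-box, TTANGTAA for the D-box and the consensus of the ROR response element, which is found in few windows. Of 32851 mouse promoter windows, 7.15% held the E-box, 4.68% the E′-box, 2.32% the D-box and 0.384% the ROR element. Arntl held the ROR element on chr7:113207528-113207557 (plus strand), inside its first exon in the 5′ untranslated region, and Cry1 held an E′-box (read here on the opposite strand) and an E-box on chr10:85185089-85185153 (minus strand), upstream of its start and outside any annotated gene.
Arntl, ROR element: ggaaggcagAAAGTAGGTCAgggacggagg
Cry1, E′-box and E-box: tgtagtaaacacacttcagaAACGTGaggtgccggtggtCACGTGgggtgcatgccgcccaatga
The windows of Npas2, Clock and Nfil3 held none of the 4 sets of letters, which says only that these letters are not in these windows. Among the 18 other clock genes with a window, 4 held the E-box (Bhlhe41, Ciart, Per1 and Tef), 3 the D-box, 3 the E′-box and 0 the ROR element. The stretches of Per3 and Ciart, whose levels ran opposite to those of Arntl in these mice, are given for comparison. Per3 held the D-box letters 2 times on chr4:151044806-151044880 (minus strand, within the span of Camta1), and Ciart held the E-box letters 3 times on chr3:95882257-95882354 (minus strand, within the span of C920021L13Rik).
Per3, D-boxes: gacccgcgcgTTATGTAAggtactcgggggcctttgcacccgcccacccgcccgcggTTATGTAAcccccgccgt
Ciart, E-boxes: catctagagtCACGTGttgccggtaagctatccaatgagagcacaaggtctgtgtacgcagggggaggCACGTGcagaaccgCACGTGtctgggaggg
A match to these letters is a description of the DNA and not a binding site.

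The libraries held 11382573 to 19906694 reads on genes, and values below are normalized counts, the reads of a mouse divided by its size factor. Ikbkb, the deleted gene, had 515 ± 74.3 (SD, n = 4) and 548 ± 87.9 (n = 5) normalized counts in IKKβ-/- mice with saline and Ang II, against 673 ± 78.6 (n = 5) and 726 ± 46.3 (n = 5) in IKKβ+/+ mice. Smooth muscle markers were abundant in every library. Libraries of the same group never agreed within counting noise, so each mouse was counted as 1 sample. Each group had its own block of mouse numbers and the hour of dissection is not given in the sources used here, so a batch of animals or an hour of the day cannot be told apart from the groups. In RNA from whole tissue, fewer cells of a type and less RNA per cell cannot be told apart.

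The activators Arntl and Npas2 had their lowest levels in the IKKβ-/- mice with saline. Arntl (ENSMUSG00000055116.8, chr7:113207465-113314126 on GRCm38), the partner that the loop cannot do without, had 786, 921, 537, 72.2 and 165 normalized counts in the IKKβ+/+ mice with saline and 995, 609, 723, 742 and 479 in those with Ang II. The IKKβ-/- mice had 109, 51.6, 12.6 and 51.5 with saline and 427, 379, 255, 453 and 441 with Ang II. The IKKβ-/- mice with saline therefore all lay below the IKKβ-/- mice with Ang II, while the IKKβ+/+ mice with saline fell into 3 high and 2 low values that spanned almost the whole range. The value of 12.6, in mouse X2406, was 7 reads, in the library with the fewest reads of all.

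Npas2 (ENSMUSG00000026077.15, chr1:39193731-39363236), the relative of Clock, had 897, 916, 386, 110 and 317 normalized counts in IKKβ+/+ mice with saline and 492, 793, 885, 863 and 614 with Ang II. The values in IKKβ-/- mice were 116, 84.3, 52.2 and 142 with saline and 446, 409, 286, 419 and 519 with Ang II. The same 2 IKKβ+/+ mice with saline were the lowest of their group for Npas2 as for Arntl, X2376 and X2378, and the lowest mouse of all was again X2406.

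Clock (ENSMUSG00000029238.11, chr5:76209868-76304792), the histone acetyltransferase partner of ARNTL, had 2457, 2314, 2204, 1550 and 1494 normalized counts in IKKβ+/+ mice with saline and 1860, 2456, 2072, 2437 and 2120 with Ang II. Among IKKβ-/- mice it had 1350, 1182, 1126 and 1358 with saline and 2129, 2073, 1664, 1884 and 2051 with Ang II. Its range was far narrower, with the highest mouse 2.18 times the lowest over all 19 mice against 78.9 times for Arntl and 17.5 times for Npas2. All 4 IKKβ-/- mice with saline nevertheless lay below every other mouse.

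**Figure D1:**
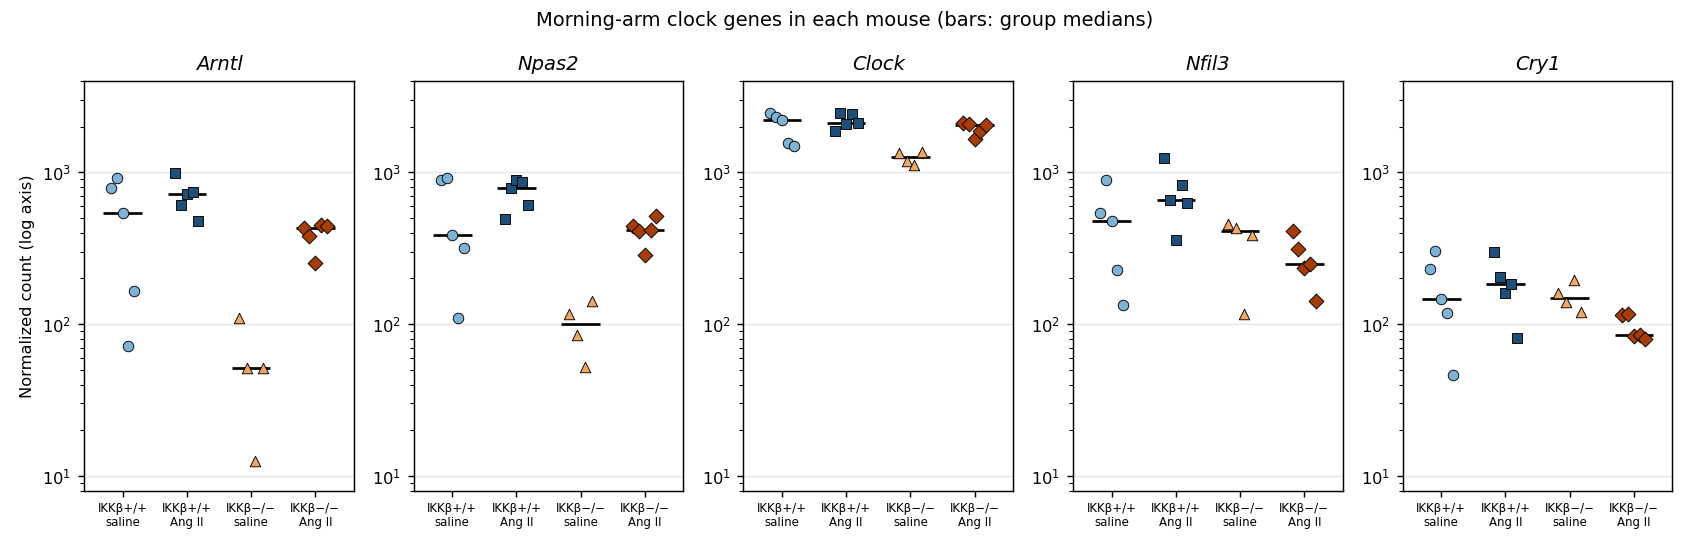
Normalized counts (log axis) of Arntl, Npas2, Clock, Nfil3 and Cry1 in each of 19 mice, with a bar at the median of each group. For Arntl, Npas2 and Clock the 4 IKKβ-/- mice with saline lie below the 5 IKKβ-/- mice with Ang II, whereas the groups overlap for Nfil3, and for Cry1 the IKKβ-/- mice with Ang II lie below those with saline.

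The repressors did not share this distribution in the IKKβ-/- mice. Nfil3 (ENSMUSG00000056749.7, chr13:52967209-52981073) had 542, 892, 475, 228 and 133 normalized counts in IKKβ+/+ mice with saline and 1240, 661, 360, 829 and 626 with Ang II. Nfil3 in IKKβ-/- mice was at 454, 432, 117 and 388 with saline and 411, 315, 236, 247 and 143 with Ang II. Both pairs of groups overlapped, and the low value of 117 with saline was in X2406, as for Arntl and Npas2.

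Cry1 (ENSMUSG00000020038.10, chr10:85131700-85185064), which as a protein blocks the ARNTL pairs, had 232, 304, 147, 119 and 46.2 normalized counts in IKKβ+/+ mice with saline and 300, 205, 161, 184 and 80.5 with Ang II. The counts in IKKβ-/- mice were 160, 139, 195 and 120 with saline and 116, 117, 83.5, 85.1 and 79.7 with Ang II. In IKKβ-/- mice every mouse given Ang II lay below every mouse given saline, the opposite of Arntl. The gap was narrow (117 against 120 normalized counts), and 2.88% of all genes had groups apart in this direction. The fall did not pass (log2 fold change -0.67 ± 0.40 SE, limma, adjusted p = 0.411). X2406 had the highest Cry1 of its group and not the lowest.

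Levels of different genes were compared per kilobase of exon, with all annotated exons of a gene joined into 1 length. Transcripts with a retained intron are listed for Arntl, Clock and Cry1 but not for Nfil3 or Npas2. The order under another choice of length was not tested. Nfil3 was the most abundant of the 5 genes per kilobase in 12 of 19 mice, Clock in 6 and Npas2 in 1. Over all mice the means were 227 ± 143 normalized counts per kilobase for Nfil3, 137 ± 31.7 for Clock, 96.1 ± 62.1 for Npas2, 57.4 ± 41.0 for Arntl and 45.3 ± 21.5 for Cry1 (SD, n = 19). Every gap between neighbours in this order was smaller than the larger of their SDs. These SDs are between mice of all groups, and the 5 genes share each mouse, so they do not describe the order within a mouse. The order of the means was found in 5 mice, and only 1 mouse had Arntl above Npas2. Arntl lay above Cry1 in some groups and below it in another. In IKKβ+/+ mice with Ang II it had 94.3 ± 25.4 normalized counts per kilobase against 55.7 ± 23.7 for Cry1 (SD, n = 5), whereas in IKKβ-/- mice with saline it had 7.47 ± 5.28 against 45.9 ± 9.59 (SD, n = 4).

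The effect of Ang II was tested within each genotype, since the study asked how much of the response of the aorta depends on IKKβ in smooth muscle. In IKKβ-/- mice 3 of the 5 genes rose with Ang II, against a background of 5.29% of all genes tested that passed and 2.59% that passed as higher. Arntl rose 8.51-fold (log2 fold change 3.09 ± 0.60 SE, limma, Benjamini-Hochberg adjusted p = 0.0105), Npas2 4.39-fold (2.13 ± 0.44, adjusted p = 0.0147) and Clock 1.56-fold (0.64 ± 0.14, adjusted p = 0.0186). Nfil3 had a log2 fold change of -0.27 ± 0.49 (adjusted p = 0.831) and Cry1 of -0.67 ± 0.40 (adjusted p = 0.411). The groups did not overlap for 4 of the 5 genes, higher with Ang II for Arntl, Npas2 and Clock and lower for Cry1, while 5.29% of all genes had groups that did not overlap (2.41% higher and 2.88% lower). The rise of the 3 activators passed under every alternative processing and with each mouse left out in turn.

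Markers of white adipocytes moved with this comparison. All 5 of those tested, of 6 listed, rose with Ang II in IKKβ-/- mice (median log2 fold change 4.04), and their summed level had a median of 8224 and a highest value of 24731 normalized counts with Ang II, against 1148 and 4153 with saline, with some overlap between the groups. None was at 0 in a whole group, and Adipoq ranged from 194 to 3350 with Ang II and from 17.4 to 173 with saline. Without X2384 and X2385, the 2 mice highest in these markers, Arntl, Npas2 and Clock passed with log2 fold changes of 3.20, 2.29 and 0.74. Of the mice then left with Ang II, X2380 and X2386 still had a higher summed level than every IKKβ-/- mouse with saline, and X2383 did not. The exclusion therefore cannot separate these cells from Ang II. The part of white adipocytes in the rise was not tested.

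In IKKβ+/+ mice 0 of the 5 genes passed, against 8.66% of all genes tested. The log2 fold changes were all above 0, at 1.01 ± 0.57 for Arntl (SE, limma, adjusted p = 0.331), 0.81 ± 0.42 for Npas2 (adjusted p = 0.287), 0.15 ± 0.13 for Clock (adjusted p = 0.564), 0.89 ± 0.46 for Nfil3 (adjusted p = 0.286) and 0.27 ± 0.38 for Cry1 (adjusted p = 0.742). The groups overlapped for every one of them (8.42% of all genes had groups that did not), 0 had an unadjusted p under 0.05 (20.3% of all genes), and the edgeR and DESeq2 tests on reads also called 0. With saline these mice differed so much among themselves that the mean of Arntl, 496 ± 373 (SD, n = 5), had an SD not far below the mean itself. The estimate for Arntl was 0.45 without X2376 and 1.37 without X2372. Some markers of cell types passed in this comparison as well. With Ang II, 2 of 6 smooth muscle markers and 1 of 4 skeletal muscle markers tested were higher, and 1 of 5 fibroblast markers was lower. The part of these cells in the estimates was not tested.

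The effects of Ang II in the 2 genotypes were then compared directly. The difference, IKKβ-/- minus IKKβ+/+, was 2.08 ± 0.83 on the log2 scale for Arntl (SE, limma, adjusted p = 0.370), 1.33 ± 0.61 for Npas2 (adjusted p = 0.428), 0.49 ± 0.19 for Clock (adjusted p = 0.369), -1.16 ± 0.67 for Nfil3 (adjusted p = 0.514) and -0.94 ± 0.55 for Cry1 (adjusted p = 0.523). None of the 5 passed, and neither did any of the 14845 genes tested (0.0%) by limma, although 3 of the 5 and 11.1% of all genes had an unadjusted p under 0.05. On reads, edgeR called 3 genes in all and DESeq2 279, with 0 of the 5 among them. That Arntl, Npas2 and Clock passed in IKKβ-/- mice and not in IKKβ+/+ mice is therefore not shown to be a difference between the genotypes.

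Averaged over both genotypes, Arntl was higher with Ang II by 2.05 ± 0.41 on the log2 scale (SE, limma, adjusted p = 0.0043). Npas2 was higher by 1.47 ± 0.30 (limma, adjusted p = 0.00505) and Clock by 0.40 ± 0.10 (adjusted p = 0.0147). These were 3 of the 5 genes, against 12.7% of all genes tested and 5.66% that passed as higher. Nfil3 had 0.31 ± 0.33 (adjusted p = 0.612) and Cry1 -0.20 ± 0.28 (adjusted p = 0.708). The averages hold values of opposite sign for Nfil3 and for Cry1 in the 2 genotypes. For Arntl, Npas2 and Clock they join a rise that passed in IKKβ-/- mice with one that did not in IKKβ+/+ mice (3.09 and 1.01 for Arntl). All 5 white adipocyte markers tested were higher in this average too (median log2 fold change 2.23), while of 5 endothelial markers 1 was higher and 1 lower and of 5 fibroblast markers 1 was lower. Arntl, Npas2 and Clock passed without X2384 and X2385, and Clock did not at a fold change above 1.5. The part of white adipocytes in the average was not tested.

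IKKβ-/- and IKKβ+/+ mice were also compared under saline, without Ang II. The deletion cannot be told apart here from a batch of animals or an hour of dissection. Arntl was 7.60-fold lower in IKKβ-/- mice (log2 fold change -2.93 ± 0.60 SE, limma, adjusted p = 0.0367), Npas2 4.37-fold lower (-2.13 ± 0.44, adjusted p = 0.0367) and Clock 1.57-fold lower (-0.65 ± 0.14, adjusted p = 0.0367). Nfil3 had -0.27 ± 0.49 (adjusted p = 0.805) and Cry1 0.09 ± 0.40 (adjusted p = 0.928). Thus 3 of 5 were lower, against 5.47% of all genes that passed and 2.07% that passed as lower. The groups were apart only for Clock among the 5, as they were for 8.76% of all genes (4.08% lower), since the IKKβ+/+ mouse X2376 lay within the range of the IKKβ-/- mice for Arntl and Npas2.

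These calls rested on single mice. Without X2406, none of the 5 genes passed, with adjusted p of 0.132 for Arntl and Npas2 and 0.143 for Clock, and the count over all genes dropped from 812 to 24. Without X2403 only Arntl passed (adjusted p = 0.0876). The log2 fold changes without X2406 were -2.35, -1.86 and -0.60. Of 5 macrophage markers 2 were lower in IKKβ-/- mice with saline, where the summed level of the list ranged from 1764 to 2844 normalized counts against 3037 to 4370 in IKKβ+/+ mice with none of the 5 markers at 0 in any mouse, and the part of these cells in the result was not tested.

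Among mice given Ang II, 0 of the 5 genes passed between genotypes, against 0.128% of all genes tested. All 5 log2 fold changes were below 0, at -0.85 ± 0.57 for Arntl (SE, limma, adjusted p = 0.506), -0.80 ± 0.42 for Npas2 (adjusted p = 0.388), -0.16 ± 0.13 for Clock (adjusted p = 0.602), -1.43 ± 0.46 for Nfil3 (adjusted p = 0.212) and -0.85 ± 0.38 for Cry1 (adjusted p = 0.325). The 5 IKKβ-/- mice had between 255 and 453 normalized counts of Arntl, all below the 479 to 995 of the IKKβ+/+ mice, and 1.54% of all genes had groups that did not overlap in this comparison (0.882% lower). Nfil3, with 143 to 411 against 360 to 1240, overlapped by 1 mouse on each side.

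An unadjusted p under 0.05 was found for 2 of the 5 genes in this comparison, Nfil3 and Cry1, and for 14.3% of all genes, and DESeq2 called Nfil3 alone (log2 fold change -1.46, adjusted p = 0.0838) while edgeR called 0. Without X2356, the IKKβ+/+ mouse with the lowest Nfil3 of its group, Nfil3 passed in limma (log2 fold change -1.66, adjusted p = 0.0856). That mouse also had the highest summed level of neuron markers, 5917 normalized counts, when the median of its group was 337. Without X2356 and X2350, the 2 mice highest in those markers, Nfil3 had -1.45 with an adjusted p of 0.277.

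Averaged over both treatments, IKKβ-/- mice were lower by limma for Arntl (log2 fold change -1.89 ± 0.41 SE, adjusted p = 0.0272), Npas2 (-1.46 ± 0.30, adjusted p = 0.0221) and Clock (-0.40 ± 0.10, adjusted p = 0.0351). These were 3 of the 5 genes, against 7.24% of all genes tested and 3.45% that passed as lower. Nfil3 had -0.85 ± 0.33 (adjusted p = 0.148) and Cry1 -0.38 ± 0.28 (adjusted p = 0.438). Nfil3 passed by DESeq2 (adjusted p = 0.0812), without X2378 (0.0678) and without X2356, and Clock did not pass without X2384 and X2385 (adjusted p = 0.11) or at a fold change above 1.5. Of 5 macrophage markers 2 were lower in IKKβ-/- mice in this average as well, and their part in the result was not tested.

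**Figure D2:**
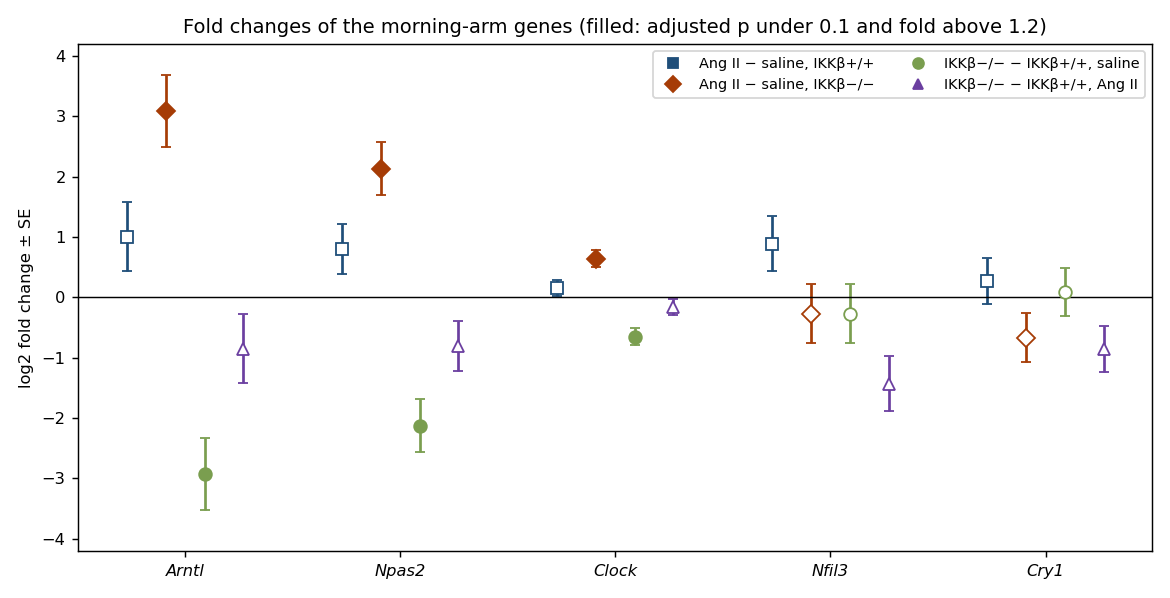
Log2 fold changes from limma with their SE for the 5 genes in 4 comparisons. Filled symbols passed the thresholds of adjusted p (under 0.1) and fold (above 1.2). Only the Ang II effect in IKKβ-/- mice and the genotype difference with saline have filled symbols, for Arntl, Npas2 and Clock.

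Those of the other clock genes that passed mostly went the other way. Of 25 other clock genes listed 24 were in the table and tested, and in IKKβ-/- mice 10 of them fell with Ang II and 0 rose (median log2 fold change of the list -0.63, against -0.0029 over all genes, of which 2.69% passed as lower). Ciart, a repressor of the ARNTL pairs, had a log2 fold change of -3.38 ± 0.76 (SE, limma, adjusted p = 0.0211), Hlf of -2.72 ± 0.42 (adjusted p = 0.00319), Dbp of -2.43 ± 0.76 (adjusted p = 0.095) and Per3 of -2.21 ± 0.45 (adjusted p = 0.0144). The others were Per1, Per2, Tef, Bhlhe41, Wee1 and Usp2. Dbp had 3705, 3060, 5597 and 3813 normalized counts in IKKβ-/- mice with saline and 441, 1132, 823, 609 and 848 with Ang II. The groups of Dbp were well apart, and its highest value was in X2406, where Arntl was lowest. Without X2384 and X2385, 6 of the 24 fell.

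In IKKβ+/+ mice 1 of the 24 passed, Hlf, which fell with Ang II (log2 fold change -1.29 ± 0.40 SE, limma, adjusted p = 0.0713) as 4.33% of all genes did. That count was 0 without X2350, X2358, X2373, X2376 or X2378, 2 without X2380, 4 without X2370 and 6 without X2372. With saline, 12 of the 24 were higher in IKKβ-/- mice and 0 lower (median 0.51, against -0.020 over all genes, of which 3.4% passed as higher), among them Ciart (3.37 ± 0.76, adjusted p = 0.0464), Hlf (1.73 ± 0.42, adjusted p = 0.0518) and Per3 (1.88 ± 0.45, adjusted p = 0.0501). Without X2406 this count was 0, without X2370 2, without X2403 3 and without X2373 4. With Ang II, 0 of the 24 passed between the genotypes, and for the difference of the effects the count was also 0 by limma, with 2 by DESeq2 in each case. Leaving out X2356 gave 2 between the genotypes with Ang II and 1 for the difference, and leaving out X2380 gave 1 between the genotypes.

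Nr1d1, a Rev-erb gene whose protein represses Arntl, passed in none of these comparisons. Its log2 fold change with Ang II in IKKβ-/- mice was -0.23 ± 0.41 (SE, limma, adjusted p = 0.831), and its values of 2543, 2795, 2937 and 4072 normalized counts with saline overlapped the 2289, 3534, 2578, 2084 and 2721 with Ang II. Nr1d2, the other Rev-erb gene, was higher in IKKβ-/- mice with saline (1.26 ± 0.40 SE, limma, adjusted p = 0.0947) and in the average over treatments (0.98 ± 0.27, adjusted p = 0.0557). It was lower with Ang II in the average over genotypes (-0.76 ± 0.27, adjusted p = 0.0844). Nr1d2 did not pass with Ang II within IKKβ-/- mice (-1.04 ± 0.40, adjusted p = 0.169) or IKKβ+/+ mice (-0.49 ± 0.37, adjusted p = 0.495). Arntl2, the paralog of Arntl, had 0.60 ± 0.22 in IKKβ-/- mice (adjusted p = 0.147) and rose with Ang II only in the average over genotypes (0.46 ± 0.15, adjusted p = 0.059). Rora, an activator that shares its DNA element with the REV-ERB proteins, was lower in IKKβ-/- mice in the average over treatments (-0.45 ± 0.14, adjusted p = 0.074).

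**Figure D3:**
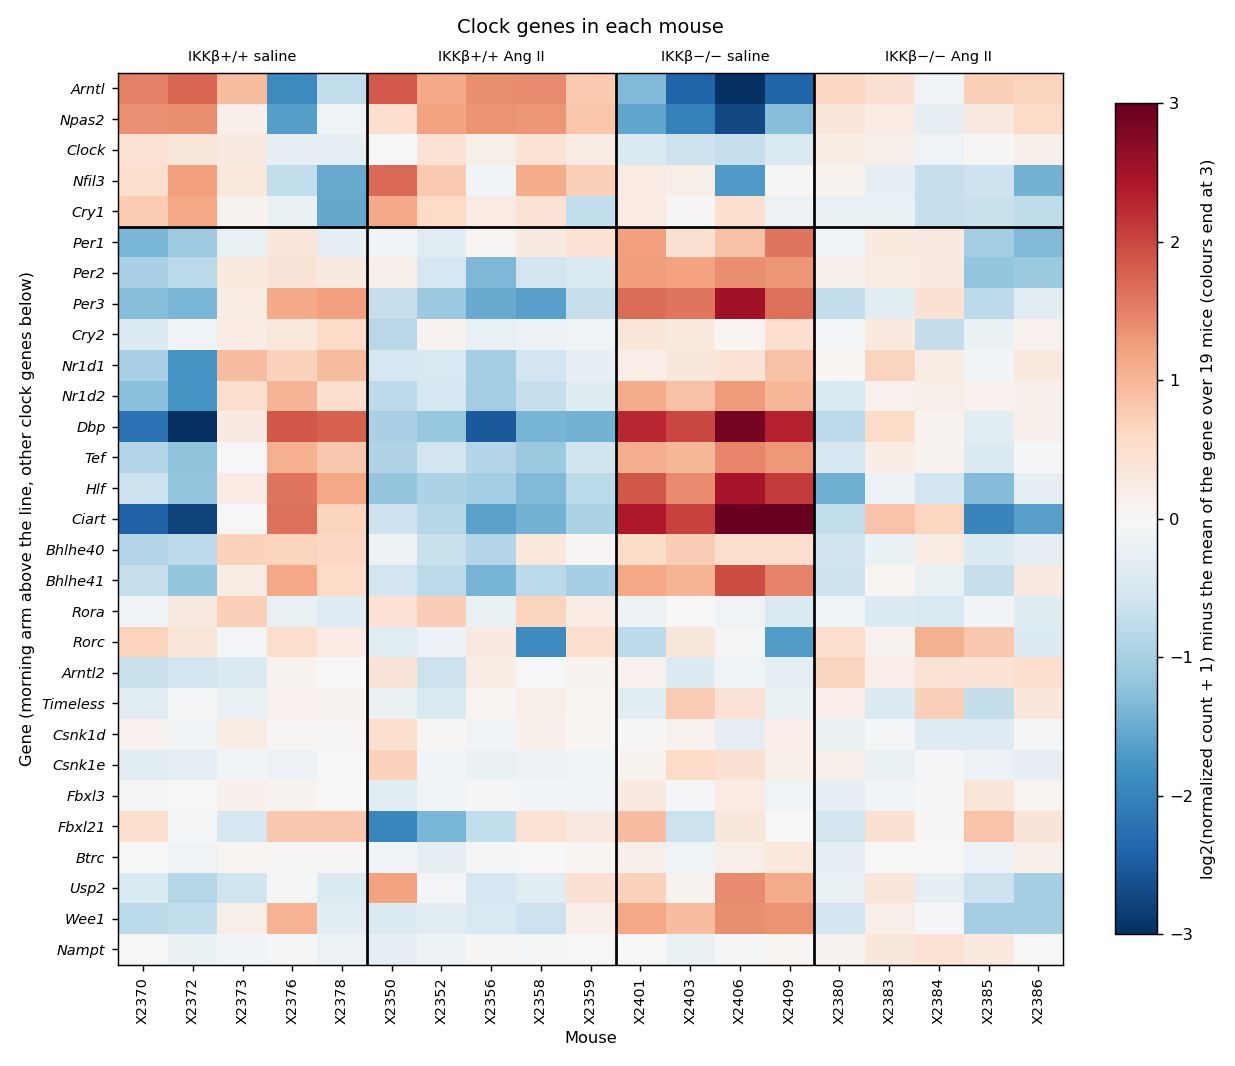
Log2(normalized count + 1) of 5 morning clock genes, above the line, and 24 other clock genes, below it, in each of 19 mice, as the deviation from the mean of each gene over all mice (colours end at 3 in either direction). Arntl and Npas2 are blue where Per3, Dbp, Tef, Hlf and Ciart are red, in all 4 IKKβ-/- mice with saline and in the IKKβ+/+ mouse X2376. In the IKKβ+/+ mouse X2378 Arntl is on the blue side and those genes on the red, but Npas2, at 317 normalized counts, is close to its mean.

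Per1 is both a clock gene and a glucocorticoid-induced gene. In IKKβ+/+ mice it had a log2 fold change of 0.58 ± 0.33 with Ang II (SE, limma, adjusted p = 0.337) beside 0.99 for Tsc22d3 (adjusted p = 0.109) and 1.05 for Fkbp5 (adjusted p = 0.0795), and 9 of 15 listed glucocorticoid-induced genes rose, against 4.33% of all genes. In IKKβ-/- mice Per1 fell by 1.43 (adjusted p = 0.0308), while 2 of the 15 rose and 2 fell, Per1 among them, against 2.59% and 2.69% of all genes. For the difference of the effects 0 of the 15 passed, and Per1 had -2.02 ± 0.48 (SE, limma, adjusted p = 0.215). With saline Per1 was already higher in IKKβ-/- mice (1.56 ± 0.35, limma, adjusted p = 0.0464). Without X2406, 0 of the other clock genes, Per1 among them, passed in that comparison.

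The IKKβ+/+ mice with saline were alike in most genes and unlike in their clock genes. The SD of log2 Arntl over these 5 mice was 1.58, larger than that of 99.7% of 11421 genes with a mean of at least 50 normalized counts, for which the median SD was 0.17. The SD of Npas2 was 1.26, that of Nfil3 1.08, that of Cry1 1.04 and that of Clock 0.34. In IKKβ-/- mice with saline the SD of Arntl was 1.26, again above 99.3% of genes, but with Ang II it was 0.39 in IKKβ+/+ and 0.34 in IKKβ-/- mice. Without X2406 the SD in IKKβ-/- mice with saline was 0.62, and in IKKβ+/+ mice with saline it ran from 1.12 to 1.77 as each mouse was left out.

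The balance between Arntl and its target Dbp shows the same mice in a single number, the log2 level of Arntl minus that of Dbp in each mouse. It ranged from -5.26 to 3.67 in IKKβ+/+ mice with saline, from -8.68 to -5.07 in IKKβ-/- mice with saline, from 0.73 to 2.42 in IKKβ+/+ mice with Ang II and from -1.69 to -0.046 in IKKβ-/- mice with Ang II. The latter 3 groups did not overlap each other, whereas the IKKβ+/+ mice with saline ran from the range of the IKKβ-/- mice with saline to beyond the top of every other group. Against Per3 in place of Dbp the Ang II groups met, from -0.60 to 1.48 in IKKβ-/- and from 1.47 to 3.05 in IKKβ+/+ mice, and against Cry1 they overlapped, from 1.60 to 2.45 and from 1.57 to 2.56. Mouse X2373 lay between in the balance with Dbp, with Arntl at 537 and Dbp at 923 normalized counts, and with Nr1d1 at 4189, close to the highest value of all mice.

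Arntl, Npas2 and Clock varied together over the 19 mice. On the log2 scale Pearson's r was 0.95 between Arntl and Npas2, 0.92 between Arntl and Clock and 0.94 between Npas2 and Clock, and for deviations from the group means it was 0.84, 0.73 and 0.81. Nfil3 had an r of 0.58 with Arntl over all mice but 0.75 within groups, which was no lower than that of Clock. Cry1 had 0.21 and 0.49 with Arntl but 0.66 and 0.62 with Nfil3. All of these are descriptions, since the mice share their groups and each pair of values shares a library and its size factor.

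**Figure D4:**
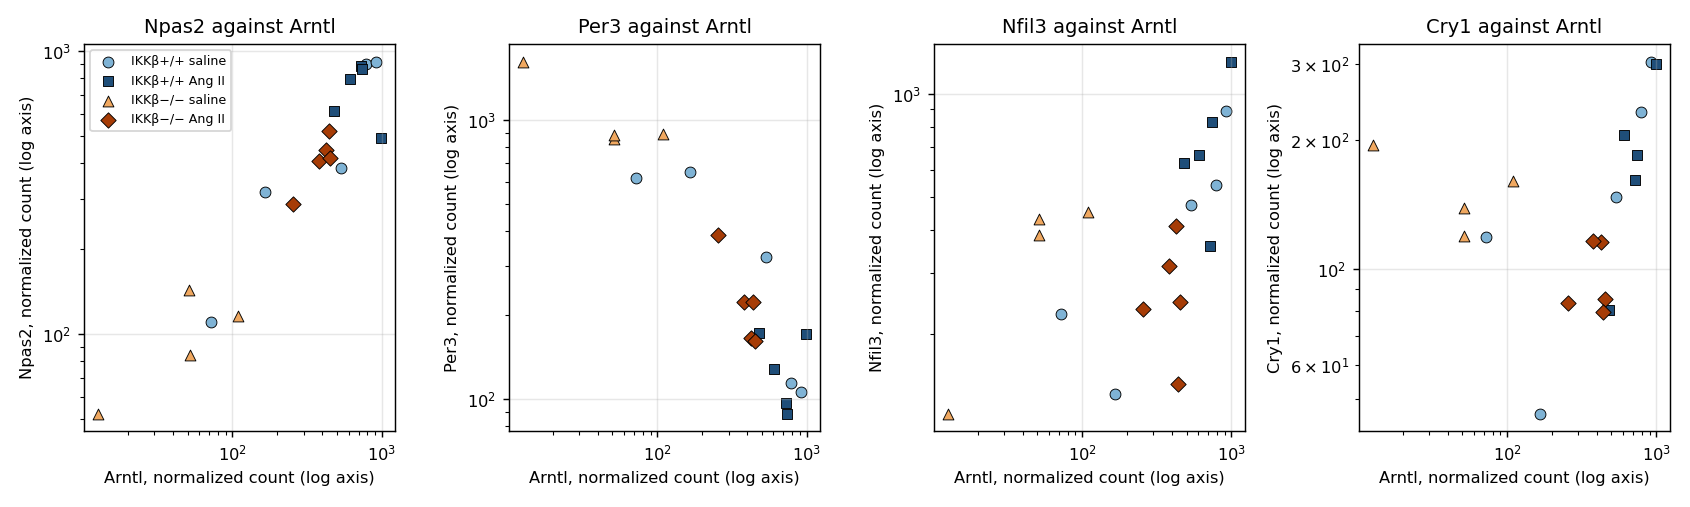
Normalized counts of Npas2, Per3, Nfil3 and Cry1 against those of Arntl in each of 19 mice (log axes), with symbols by group. Npas2 rises and Per3 falls with Arntl across all groups, whereas for Nfil3 and Cry1 the IKKβ-/- mice with saline lie above the level that the IKKβ+/+ mice have at low Arntl, except X2406 for Nfil3.

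Ranked by Pearson's r with Arntl over the 19 mice, among 11420 other genes with a mean of at least 50 normalized counts, the 5 most alike were Npas2 (0.95), Clock (0.92), Leo1 (0.92), Adamts4 (0.89) and Unc119b (0.88). The 5 most opposite were Per3 (-0.93), Tef (-0.93), Bhlhe41 (-0.92), Hlf (-0.91) and Ciart (-0.91), all of them clock genes. Nfil3 was at place 566 from the top and Cry1 at place 3611. By deviations from the group means Npas2 was again the most alike and Nfil3 stood at place 7, Cry1 at 272, while Clock stood at 12 and Adamts4 at 30. By Spearman's rho Npas2 stood at place 3 and Clock at 15, and Tef was the most opposite. Leo1, a subunit of the PAF1 complex that travels with RNA polymerase II, rose with Ang II in IKKβ-/- mice (log2 fold change 0.96 ± 0.25 SE, limma, adjusted p = 0.0389). Adamts4, a protease that cleaves the proteoglycans aggrecan and versican, rose in the same comparison by 3.14 ± 0.65 (adjusted p = 0.0147).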

How the data were processed

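RNA-Seq was done on the suprarenal aorta of 19 mice in 4 groups. Per the labels and methods, the authors made stranded poly(A) libraries, read them single-end, trimmed with Trimmomatic 0.35, aligned to GRCm38 with STAR 2.7.1a and normalized with DESeq2 1.30.1. The deposited signal is the count of each gene divided by the size factor of the mouse, and 100% of values were whole multiples of a read within 0.01, which gave the reads back. Depth (11382573 to 19906694 reads) limits precision at low counts, and the spread between mice includes this counting error. For the main test, limma 3.58.1 (R 4.3.3; lmFit, eBayes with a trend) was fitted to log2(value + 1) with a mean for each group, two-sided, over 14845 genes with at least 10 in at least 4 mice. Fold changes are on this log2 scale, which understates those of low genes. Genes passed with a fold change above 1.2 and an adjusted p (Benjamini-Hochberg) under 0.1.

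Alternatives were a pseudocount of 4, no filter, TMM scaling, quality weights, fits of only the groups compared, edgeR 4.0.16 and DESeq2 1.42.0 on the recovered reads, stricter thresholds and each mouse left out. Leaving out the mice highest in neuron or adipocyte markers, or each mouse for the SD of Arntl, was an alternative chosen after seeing the data. Simulated counts with known changes served to test the scripts. The members, the gene lists and the rule for named genes (the members, the other clock genes, checks of the labels, and the 5 genes most and least like Arntl) were chosen with earlier results of these data known. Exon lengths were from Gencode M21. Mice within a group are separate animals.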

Additional observations from a re-analysis of the deposited data

How the results depend on the processing

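No paired analysis was possible because the groups share no mouse numbers. Among the 5 genes, the count that passed with Ang II in IKKβ-/- mice was 3 and in IKKβ+/+ mice 0 under every alternative. It ranged from 0 to 3 between genotypes with saline and from 0 to 1 with Ang II when each mouse was left out, and was 1 with Ang II by DESeq2. It was 2 to 3 for Ang II averaged over genotypes and 2 to 4 for the genotypes averaged over treatments.

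For the 24 other clock genes, leaving out each mouse gave 0 to 6 with Ang II in IKKβ+/+ mice, 0 to 1 for the difference of effects, 0 to 12 between genotypes with saline, 0 to 2 with Ang II and 4 to 10 averaged over treatments. In IKKβ+/+ mice the count was 5 by edgeR and by DESeq2, and 0 at an adjusted p under 0.05 and without X2350 and X2356. The difference of effects gave 2 by quality weights and by DESeq2, the genotypes with Ang II gave 2 by DESeq2, and the average over genotypes gave 7 by quality weights. At an adjusted p under 0.05 the genotypes gave 4 with saline and 4 averaged over treatments. Without X2384 and X2385, 6 passed with Ang II in IKKβ-/- mice and 5 between genotypes averaged over treatments.

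Cry1 between genotypes with saline turned from 0.089 to -0.069 by quality weights, -0.16 by edgeR and -0.15 by DESeq2, and ran from -0.31 to 0.36 when each mouse was left out (-0.032 without X2406). Its Ang II effect in IKKβ+/+ mice ran from -0.13 to 0.54. Nfil3 between genotypes with saline ran from -0.64 to 0.19, with 0.048 without X2372. None of these passed the test, and the cause was not tested. Counts over all genes varied with the setting: 271 to 1164 with Ang II in IKKβ-/- mice, 638 to 2074 in IKKβ+/+ mice, 136 to 1902 between genotypes with saline, 0 to 521 with Ang II, 0 to 279 for the difference, 909 to 2293 and 313 to 1571 for the averages. With each mouse left out, the count between genotypes with saline ran from 24 (without X2406) to 1727 (without X2409).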
